A study of Mus musculus with 12 samples.

Results

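Cell cycle genes were followed across 4 groups of mouse peritoneal macrophages, with Mki67, the gene of the proliferation antigen Ki-67, set beside the replication and mitosis genes that it usually follows. The members were 38 named genes, taken by the gene name of each array probe or by an older alias, and every probe was kept apart. All 38 genes had a probe, 62 probes in all of the 41174 on the array; the pair of Cdk1 probes stood under the older name Cdc2a. Of the 62, 50 probes of 35 genes were tested, which asked that a group have all 3 of its arrays well above background; 12 probes did not reach this.

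The 4 groups, with 3 one-colour arrays each, were MyD88-null macrophages with apoA-I, MyD88-null control macrophages, C57BL/6 macrophages with apoA-I and C57BL/6 control macrophages; the series' design calls the C57BL/6 genotype MyD88 +/+. MyD88 is an adaptor protein that passes on signals of interleukin-1 receptors and most Toll-like receptors, and apoA-I is the main protein of high-density lipoprotein. All cells came from female mice of 10 weeks, were drawn into the abdominal cavity with 4% thioglycolate, a sterile irritant, and were collected 96 h later and plated, and then took up cholesterol from medium with 10 µg/ml overnight. All then stood in medium with polymyxin B, which binds bacterial lipopolysaccharide, at 25 µg/ml, and apoA-I was given at 10 µg/ml for 2 h. The labels give no promoter, clone or passage for the MyD88-null mice and do not say whether cells of several animals were pooled. The design text names 3 replicate experiments of 4 samples each, but no label ties samples to animals, so the p-values rest on a spread among samples that could be partly technical. The free-text description of 1 C57BL/6 control sample and of 1 MyD88-null apoA-I sample, both replicate 2, names the opposite treatment to the sample's title; the titles were followed.

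In a dividing cell, D-type cyclins with Cdk4 and Cdk6 start the passage out of G1, E2F factors then switch on genes of DNA synthesis, and B-type cyclins with Cdk1, Aurora and polo-like kinases carry the cell through mitosis. Mki67 transcript and protein are low in resting cells and high from S phase to mitosis, and in growing tissues Mki67 usually moves with Top2a, the Mcm genes and the mitotic genes. Inhibitors such as Cdkn1a, the p21 protein, hold the cyclin-dependent kinases back. Macrophages drawn by thioglycolate come largely from blood monocytes and divide little in culture.

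Levels are given as log2 of a probe's processed signal relative to the 75th percentile of its array, so that 0 is the level of that percentile. Levels of different probes are not compared, because each probe binds with its own strength. The 75th percentile of the processed signal itself ran from 209.6 to 1490 over the 12 arrays, and the share of probes well above background was 57.6% to 73.6% per array. MyD88-null apoA-I replicate 1 had both the lowest percentile and the highest share. All 7 macrophage markers, among them Adgre1, Csf1r and Cd68, were well above background on every array. So were all 7 B cell, all 6 mast cell and all 11 mesothelial or fibroblast markers, 6 of 7 T cell markers and 4 of 7 neutrophil markers on the array; neither of the 2 eosinophil markers was on every array, and Cd209a of the dendritic cell list was on none. No marker probe passed limma's test in either response to apoA-I. With the experiment as a block, Cd14 of the macrophage list passed in C57BL/6 cells (log2 difference 1.59, adjusted p = 0.0167, against 0.148 without the block). In MyD88-null cells Lck of the T cell list (0.80, adjusted p = 0.0271, against 0.431) and 4 probes of the dendritic cell list passed with it. Between genotypes no marker probe passed without the block. With it, 1 of the Ighm probes (B cell) was lower in MyD88-null cells with apoA-I (-1.605, adjusted p = 0.0352). So was 1 of the Pdgfra probes (fibroblast) in controls (-2.67, adjusted p = 0.0292). Median differences among controls and with apoA-I were -0.55 and -0.61 for B cell, -0.65 and -0.60 for mast cell, and 0.51 and 0.40 for red blood cell markers. Their part in the differences of members was not tested. The probe for Myd88 itself was lower in MyD88-null cells in all 3 experiments, with log2 differences of -1.14 with apoA-I and -1.50 in controls, and it stayed well above background there; limma's adjusted p was 0.999 with apoA-I and 0.319 in controls (0.0347 and 0.00582 with the experiment as a block). The labels do not say which part of the gene is missing, so it cannot be said whether this probe lies in it.

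Mki67 rose with apoA-I in both genotypes, on both of its probes. After 2 h its mean signal was 6.83 to 10.3 times that of control cells, while the group means of the 24 tested probes of Top2a and of replication and mitosis genes lay within 2-fold of controls. The pair of Mki67 probes are shown first because the result rests on them, followed by the probe of Cdkn1a, the other member that passed, and the tested probe of Top2a, whose letters allow a reader to place each measurement. All 4 are 60-base array probes, printed 5′ to 3′ as the array files give them.
Mki67 probe 1: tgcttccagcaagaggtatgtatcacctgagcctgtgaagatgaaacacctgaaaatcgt
Mki67 probe 2: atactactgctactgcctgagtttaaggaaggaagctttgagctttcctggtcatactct
Cdkn1a: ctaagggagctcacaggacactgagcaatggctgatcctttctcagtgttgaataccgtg
Top2a probe 3: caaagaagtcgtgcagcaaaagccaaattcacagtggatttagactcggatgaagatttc
The array files place these probes on build mm7. Mki67 probe 1 lies at chr7:132099223-132099282 and probe 2 at chr7:132094802-132094861, both on the minus strand and 4361 bases apart, so that the probes read separate stretches of the Mki67 transcript. The Cdkn1a probe lies at chr17:27293819-27293878 on the plus strand, and Top2a probe 3 spans chr11:99104969-99105783 on the minus strand. No exon map of mm7 was used here, and none of these probes was saturated on any array.

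Mki67 probe 2, the brighter probe, had log2 levels of 2.68, 2.69 and 2.39 in apoA-I-treated MyD88-null cells, against -1.09, -0.24 and -0.83 in MyD88-null controls. In C57BL/6 cells the levels of probe 2 were 3.15, 3.02 and 2.85 with apoA-I, against -0.32, 0.24 and 0.78 in controls. Every apoA-I array of either genotype lay above every control array, with a gap of more than the whole spread inside any group. The rise was 3.31 ± 0.31 on the log2 scale in MyD88-null cells (SE, n = 3 against 3; 9.90-fold, limma adjusted p = 0.000441) and 2.77 ± 0.31 in C57BL/6 cells (6.83-fold, adjusted p = 0.00177).

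Mki67 probe 1 gave the same picture at lower signal. Its levels were 1.11, 0.69 and -0.15 in apoA-I-treated MyD88-null cells, against -2.99, -2.22 and -3.23 in MyD88-null controls. With apoA-I, C57BL/6 cells had 1.35, 0.98 and 0.75 on probe 1, against -2.39, -1.86 and -1.53 in C57BL/6 controls. The groups again did not overlap, and the rise was 3.36 ± 0.39 in MyD88-null cells (10.3-fold, adjusted p = 0.00141) and 2.95 ± 0.39 in C57BL/6 cells (7.74-fold, adjusted p = 0.00528). In bulk RNA, more cells with the transcript and more transcript per cell cannot be told apart.

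The size of the rise varied between experiments more than between probes. On probe 2 the apoA-I sample of an experiment exceeded its control by 3.77, 2.93 and 3.22 in MyD88-null cells and by 3.47, 2.78 and 2.07 in C57BL/6 cells for replicates 1, 2 and 3. On probe 1 the corresponding differences were 4.11, 2.90 and 3.08 in MyD88-null cells and 3.74, 2.84 and 2.28 in C57BL/6 cells. All 12 differences were positive, but both probes read the same pairs of samples, so these are not 12 separate observations. The experiments also differ in scan day and slide; within the scan days that held both treatments, the probe 2 difference was 3.78, 2.92 and 3.22 in MyD88-null cells and 3.13 and 2.07 in C57BL/6 cells. With slide as a block it was 3.20 in MyD88-null cells (adjusted p = 0.00505) and 3.08 in C57BL/6 cells (adjusted p = 0.0101). Probe 2 passed in all 12 fits that left out 1 array, in both genotypes, and so did probe 1. With the treatment of the 2 conflicting samples taken from their descriptions neither probe passed, at adjusted p of 0.818 in MyD88-null cells and 0.999 in C57BL/6 cells, with probe 2 still 2.405 higher in MyD88-null cells and 2.085 higher in C57BL/6 cells on the log2 scale; no probe on the whole array was called in either response under that reading. On Tnf, an inflammatory gene, both samples lay with the groups of their titles. The C57BL/6 control in question had 2.84, where C57BL/6 controls ran from 2.16 to 4.05 and apoA-I samples from 7.13 to 8.89. The MyD88-null apoA-I sample in question had 5.59, where its group ran from 4.24 to 5.59 and MyD88-null controls from -1.70 to -0.43. Without the 2 conflicting samples probe 1 missed the threshold in C57BL/6 cells, at 0.0641. Read alone, the MyD88-null arrays gave probe 1 an adjusted p of 0.0504.

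**Figure D1:**
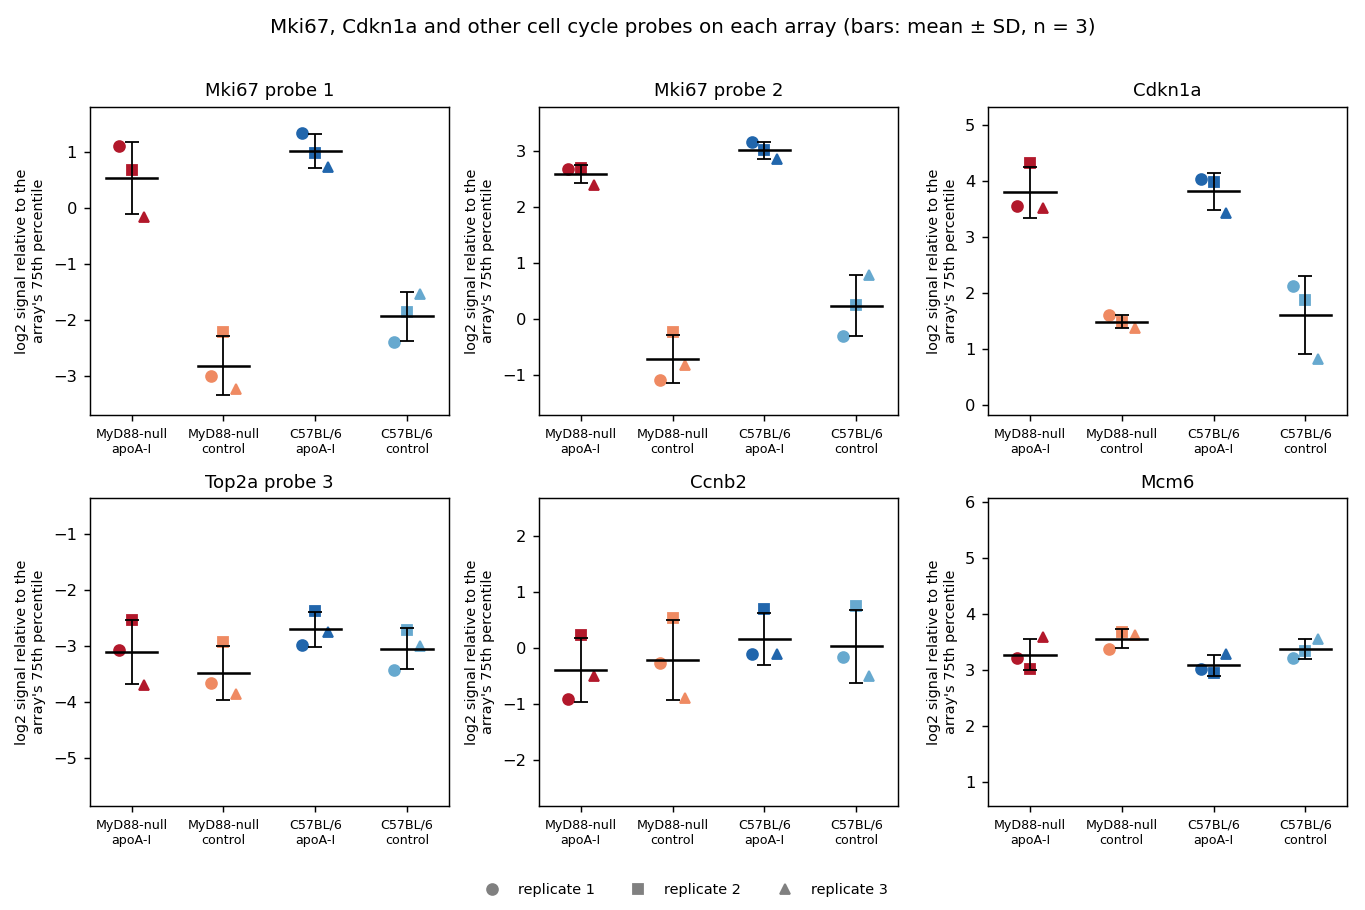
Log2 level over the array's 75th percentile (vertical axis) on each of the 12 arrays for Mki67 probes 1 and 2, Cdkn1a, Top2a probe 3, Ccnb2 and Mcm6, by group (horizontal axis); symbols are replicates, and black bars are the mean ± SD of 3 arrays. All panels span the same log2 range: on both Mki67 probes and on Cdkn1a the apoA-I arrays lie above all control arrays, while in the lower row the groups overlap or lie close together.

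The CDK inhibitors held the other member that rose. Cdkn1a, which encodes p21 and is a target of p53 and of other inducers of arrest, had levels of 3.56, 4.33 and 3.52 in apoA-I-treated MyD88-null cells, against 1.61, 1.49 and 1.38 in MyD88-null controls. In C57BL/6 cells its levels were 4.04, 3.99 and 3.44 with apoA-I, against 2.14, 1.88 and 0.82 in controls. The apoA-I and control arrays did not overlap in either genotype, and the rise was 2.31 ± 0.36 in MyD88-null cells (SE, n = 3 against 3; 4.97-fold, limma adjusted p = 0.0111) and 2.21 ± 0.36 in C57BL/6 cells (4.61-fold, adjusted p = 0.0205). The call was closer to the threshold than that of Mki67. In MyD88-null cells it was lost without apoA-I replicate 2 (adjusted p = 0.0585) and without control replicate 2 (0.0548), and in C57BL/6 cells without apoA-I replicate 1 (0.104), apoA-I replicate 2 (0.132) or control replicate 2 (0.0674). It was also lost without both conflicting samples (0.103 in MyD88-null and 0.0757 in C57BL/6 cells), with only the arrays of 1 genotype in the fit (0.0517 and 0.138), with treatments read from the descriptions (0.819 and 0.999) and, in C57BL/6 cells, with no filter on dim probes (0.0589).

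The other inhibitors had lower means with apoA-I and did not pass. Cdkn1b, the p27 inhibitor of cyclin E with Cdk2, differed by -0.66 in MyD88-null cells and -0.64 in C57BL/6 cells on probe 1 (adjusted p = 0.683 and 0.887). Its levels there were -2.63, -3.61 and -4.06 with apoA-I against -2.38, -2.62 and -3.32 without in MyD88-null cells, and -3.19, -3.47 and -3.55 against -2.78, -2.73 and -2.75 in C57BL/6 cells. The C57BL/6 groups did not overlap and the MyD88-null groups did. Probe 3 of Cdkn1b differed by -0.36 and -0.56 in the same order. Both probes of Cdkn2c, the p18 inhibitor of Cdk4 and Cdk6, differed by -0.56 and -0.49 in MyD88-null cells and by -0.26 and -0.36 in C57BL/6 cells, with adjusted p of 0.536 or more. The positions of these probes overlap.

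Over all 50 tested member probes, 3 were called higher with apoA-I in MyD88-null cells and 3 in C57BL/6 cells, in each case the 2 Mki67 probes and Cdkn1a. Over all 24351 probes tested, 1.05% were called higher in MyD88-null cells and 0.69% in C57BL/6 cells. No member probe was called lower by limma, against 0.0287% and 0.00821% of all probes. At an unadjusted p under 0.05, 11 member probes were higher and 2 lower in MyD88-null cells, against 5.28% and 3.33% of all probes. In C57BL/6 cells 10 member probes were higher and 1 lower, against 4.23% and 3.07%. Several of these probes can belong to 1 gene. The median difference of the 50 member probes was 0.05 in MyD88-null cells and 0.06 in C57BL/6 cells, against -0.00064 and -0.012 for all probes tested.

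**Figure D2:**
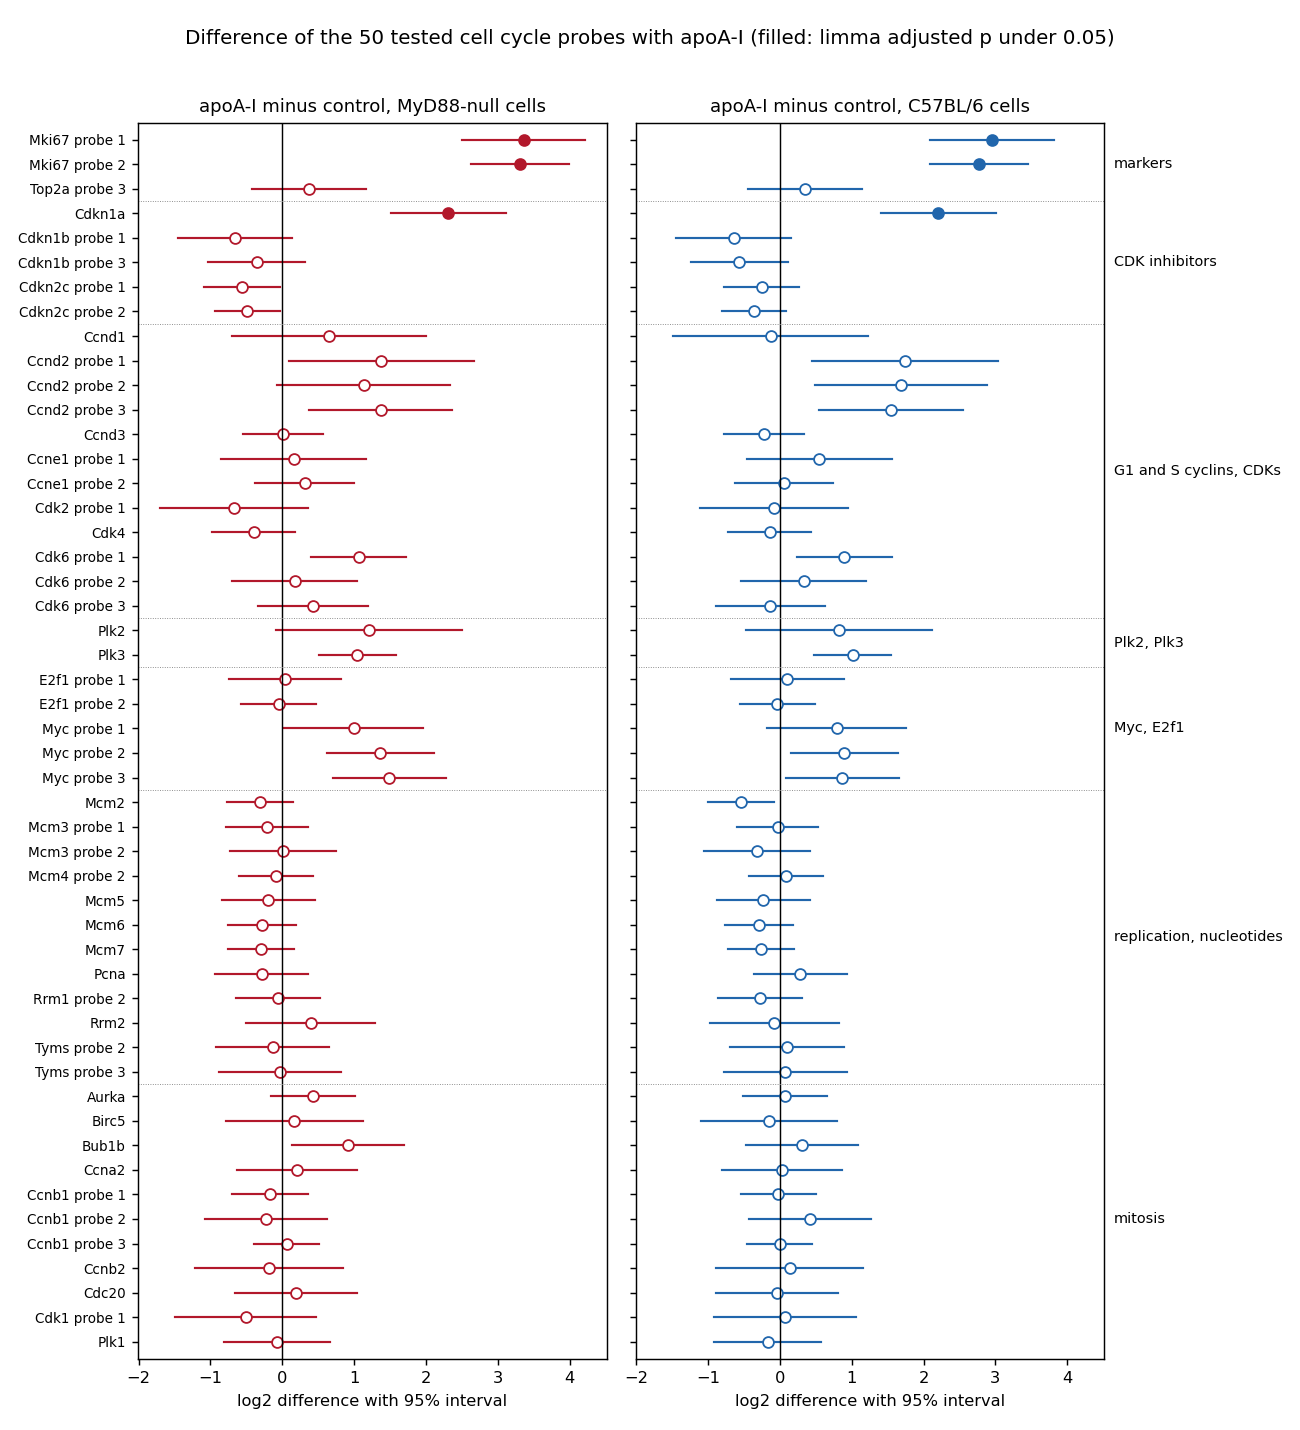
Log2 difference with apoA-I (horizontal axis, apoA-I minus control) of the 50 tested member probes with its 95% interval, in MyD88-null cells (left) and C57BL/6 cells (right), ordered by role; filled points passed limma's test. Both Mki67 probes and Cdkn1a stand to the right in both panels, and the replication and mitosis probes lie around 0.

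The genes that Mki67 usually follows lay near their control levels. Top2a, the topoisomerase that untangles replicated DNA, had 1 tested probe, with levels of -3.08, -2.55 and -3.70 in apoA-I-treated MyD88-null cells against -3.66, -2.93 and -3.86 in MyD88-null controls. Top2a levels in C57BL/6 cells were -2.98, -2.37 and -2.75 with apoA-I against -3.43, -2.71 and -3.01 in controls. These groups overlapped in both genotypes, and the differences of 0.37 and 0.35 (95% intervals -0.42 to 1.17 and -0.44 to 1.14) did not pass, at adjusted p of 0.812 in MyD88-null and 1 in C57BL/6 cells. The other 2 Top2a probes were not tested: 1 was well above background on no array and the other on 1 array.

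Top2a and the replication and mitosis members together had 24 tested probes of 20 genes, and none was called in either genotype. Their differences from control ran from -0.51 (Cdk1 probe 1) to 0.92 (Bub1b) in MyD88-null cells, with a median of -0.08, and from -0.54 (Mcm2) to 0.42 (Ccnb1 probe 2) in C57BL/6 cells, with a median of -0.01. The highest upper 95% bound among them was 1.69 in MyD88-null cells and 1.27 in C57BL/6 cells. The lower bounds of the Mki67 probes were at or above 2.50 in MyD88-null cells and 2.09 in C57BL/6 cells, so that no interval of the 24 reached those of Mki67 in the same genotype. The smallest adjusted p among the 24 was 0.467 in MyD88-null and 0.515 in C57BL/6 cells.

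Among the replication genes, the 6 Mcm genes encode the ring that opens DNA at origins, Pcna the clamp that holds the polymerase, and Rrm1, Rrm2 and Tyms enzymes that supply nucleotides. Mcm2 had levels of -0.88, -0.60 and -0.81 in apoA-I-treated MyD88-null cells against -0.69, -0.28 and -0.40 in controls, and -0.77, -0.84 and -0.81 in apoA-I-treated C57BL/6 cells against -0.49, -0.35 and 0.06 in controls. The Mcm2 groups were apart in C57BL/6 cells and overlapped in MyD88-null cells, and the differences of -0.30 and -0.54 did not pass (adjusted p = 0.751 and 0.515). Mcm7 differed by -0.30 and -0.26, with groups that did not overlap in either genotype and adjusted p of 0.758 in MyD88-null and 1 in C57BL/6 cells. Rrm2 differed by 0.39 and -0.08, Mcm3 by 0.01 and -0.32 on probe 2, and Pcna by -0.29 and 0.29 in MyD88-null and C57BL/6 cells, all with overlapping groups. The median over the 12 tested probes of the replication genes was -0.16 in MyD88-null cells and -0.15 in C57BL/6 cells.

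Among the mitotic genes, Bub1b, a kinase of the spindle checkpoint, differed most in MyD88-null cells. Its levels were -0.99, -0.17 and -1.12 with apoA-I against -1.57, -1.33 and -2.12 in MyD88-null controls, which did not overlap, a difference of 0.92 ± 0.35. It did not pass (adjusted p = 0.467) unless the experiment was a block (0.0497). In C57BL/6 cells Bub1b had -1.55, -1.05 and -1.90 with apoA-I against -1.43, -1.78 and -2.21 in controls, which overlapped, with a difference of 0.31 and an adjusted p of 1. Cdk1, the kinase that drives entry into mitosis, had -3.05, -1.36 and -1.74 with apoA-I against -1.83, -1.02 and -1.76 without on probe 1 in MyD88-null cells, where replicate 1 with apoA-I was the lowest; in C57BL/6 cells it had -1.79, -1.21 and -1.75 against -1.70, -1.13 and -2.13. Ccnb1, cyclin B1, had 3 probes with differences of -0.23 to 0.06 in MyD88-null cells and -0.02 to 0.42 in C57BL/6 cells; the 0.42 of probe 2 rested on 1 array, C57BL/6 apoA-I replicate 2, at -1.87 where the other 11 arrays lay at or below -2.78. Ccna2, Ccnb2, Cdc20, Plk1, Aurka and Birc5 differed by -0.18 to 0.43 in MyD88-null cells and by -0.17 to 0.14 in C57BL/6 cells. Of these, the groups of Aurka in MyD88-null cells did not overlap, at 0.30, 0.29 and 0.61 with apoA-I against -0.39, 0.18 and 0.12 in controls (adjusted p = 0.725).

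None of the 12 tested probes of the cyclins and kinases of G1 and S phase was called, and their median difference was 0.37 in MyD88-null cells and 0.19 in C57BL/6 cells. Ccnd2, cyclin D2, had the largest differences of them on its 3 probes in both genotypes. Probe 3 had levels of 0.85, 1.16 and 0.37 in apoA-I-treated MyD88-null cells against -0.78, 0.27 and -1.21 in controls, and 0.95, 2.42 and 1.63 in apoA-I-treated C57BL/6 cells against 0.06, 0.47 and -0.16 in controls. The groups of probe 3 did not overlap in either genotype. The differences on probes 1, 2 and 3 were 1.38, 1.13 and 1.37 in MyD88-null cells and 1.74, 1.69 and 1.54 in C57BL/6 cells, with limma adjusted p of 0.264 to 0.617. With the experiment as a block, which removes the large differences between experiments, probes 1 and 3 passed in MyD88-null cells (0.0314 and 0.0294, against 0.0721 for probe 2) and all 3 in C57BL/6 cells (0.0152, 0.0201 and 0.0207). Each of the 18 differences within an experiment was positive, from 0.86 to 1.63 in MyD88-null cells and from 0.89 to 2.24 in C57BL/6 cells. The 3 probes read the same pairs of samples, so these are not 18 separate observations.

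Cdk6, the partner kinase of the D cyclins, had probes that disagreed. Probe 1 had levels of -1.05, -0.51 and -1.31 in apoA-I-treated MyD88-null cells against -2.20, -1.75 and -2.12 in controls, and -0.78, 0.12 and -0.51 in apoA-I-treated C57BL/6 cells against -1.55, -1.05 and -1.26 in controls. Neither pair of groups overlapped, and the differences were 1.06 and 0.90 (adjusted p = 0.206 and 0.373, and 0.0114 and 0.0275 with the experiment as a block). Probe 2 differed by 0.17 and 0.33, and probe 3 by 0.43 and -0.13, in MyD88-null and C57BL/6 cells, and neither passed in any of these fits. The other D cyclins and their kinase Cdk4 did not pass: Ccnd1 differed by 0.65 and -0.13, Ccnd3 by 0.01 and -0.22 and Cdk4 by -0.40 and -0.14. Cyclin E1, the product of Ccne1, differed by 0.16 and 0.55 on probe 1 and by 0.31 and 0.05 on probe 2, and its kinase Cdk2 by -0.67 and -0.08 on probe 1.

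Plk2 and Plk3 belong to the polo-like kinases but, unlike Plk1, are known as early response and stress genes. Plk3 had levels of -0.15, -0.28 and 0.28 in apoA-I-treated MyD88-null cells against -1.49, -0.82 and -0.97 in controls, and 0.90, 0.58 and 0.64 in apoA-I-treated C57BL/6 cells against -0.11, -0.48 and -0.34 in controls. The groups did not overlap in either genotype, and the differences of 1.04 and 1.01 missed the threshold (adjusted p = 0.0982 and 0.132); with the experiment as a block the MyD88-null difference passed (0.0452) and the C57BL/6 difference did not (0.0522). Plk2 had 5.83, 4.36 and 5.82 with apoA-I against 3.83, 3.52 and 5.04 in MyD88-null controls, and 5.47, 4.68 and 5.56 with apoA-I against 4.34, 3.52 and 5.38 in C57BL/6 controls. Its groups overlapped in both genotypes although every experiment had the higher level with apoA-I, and the differences of 1.21 and 0.82 did not pass.

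Myc, a transcription factor that drives growth genes, had 3 probes. Probe 3 had levels of 1.96, 0.89 and 1.48 in apoA-I-treated MyD88-null cells against -0.62, 0.46 and 0.02 in controls, and 2.05, 1.53 and 1.76 in apoA-I-treated C57BL/6 cells against 0.55, 0.90 and 1.29 in controls. The groups of probes 2 and 3 did not overlap in either genotype. The differences on probes 1, 2 and 3 were 0.99, 1.37 and 1.49 in MyD88-null cells (adjusted p = 0.564, 0.120 and 0.109) and 0.79, 0.90 and 0.87 in C57BL/6 cells (adjusted p = 0.496 to 0.874), and none passed with the experiment as a block. E2f1, a factor that activates S phase genes, differed by -0.05 to 0.10 on its 2 probes in both genotypes.

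**Figure D3:**
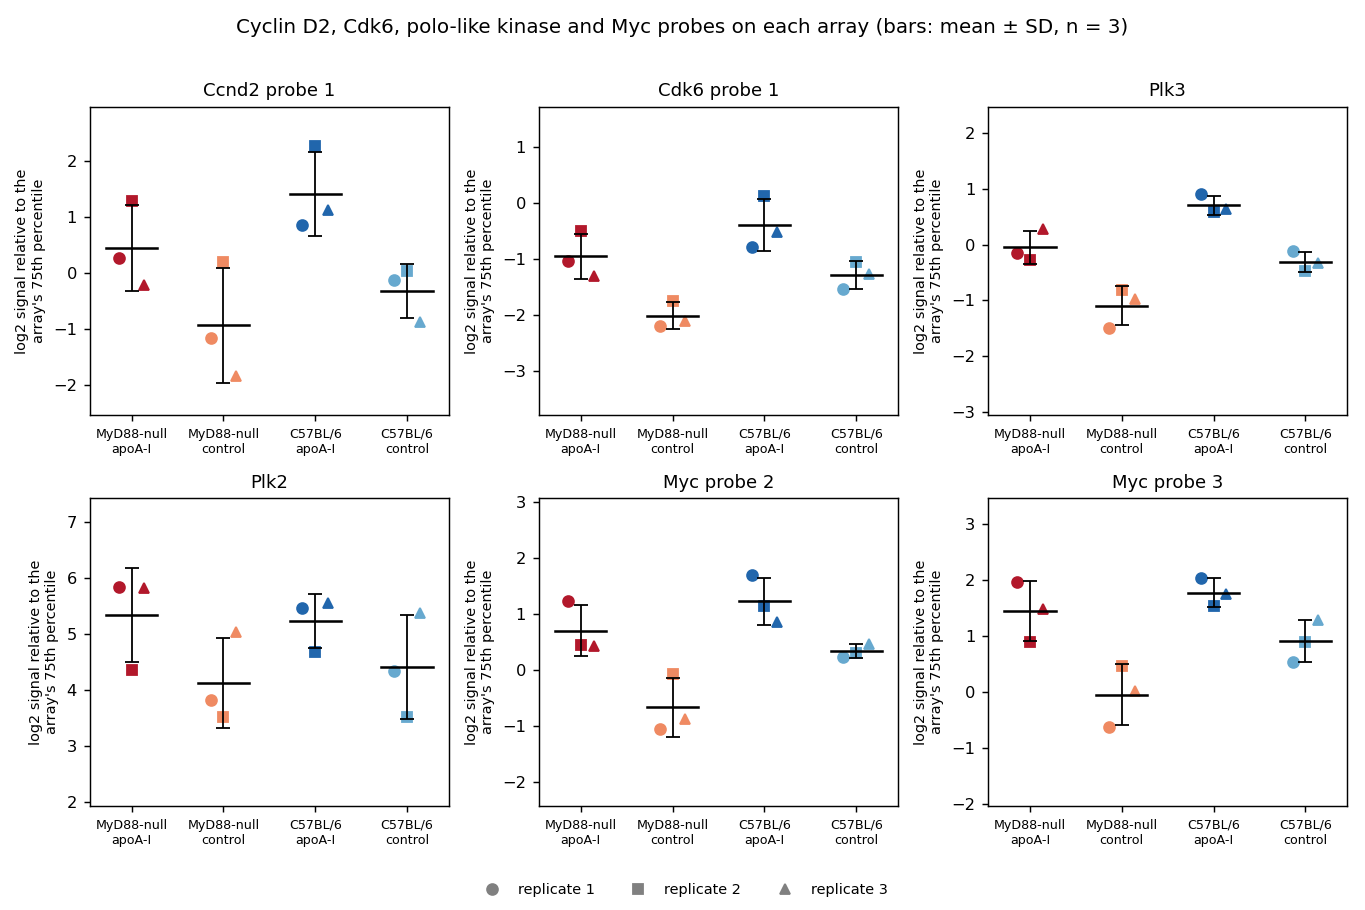
Log2 level over the array's 75th percentile (vertical axis) on each of the 12 arrays for Ccnd2 probe 1, Cdk6 probe 1, Plk3, Plk2 and Myc probes 2 and 3, by group (horizontal axis); symbols are replicates, and black bars are the mean ± SD of 3 arrays. Each replicate number is higher with apoA-I than in its own control in both genotypes, and replicates of a group lie far apart on Ccnd2 and Plk2.

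With the experiment as a block, 8 member probes were called higher in MyD88-null cells, against 2.94% of all probes, and 7 in C57BL/6 cells, against 2.27%; none was called lower, against 0.723% and 1.04%. The calls added were those of Ccnd2, Cdk6 probe 1, Plk3 and Bub1b given above. Counted without a test, 10 member probes in MyD88-null cells and 10 in C57BL/6 cells had all apoA-I arrays above all control arrays, against 5.52% and 6.76% of all probes, and 3 and 5 had them below, against 6.51% in both genotypes. All those higher belonged to Mki67, Cdkn1a, Ccnd2, Cdk6, Plk3, Myc and, in MyD88-null cells, Bub1b and Aurka.

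**Figure D4:**
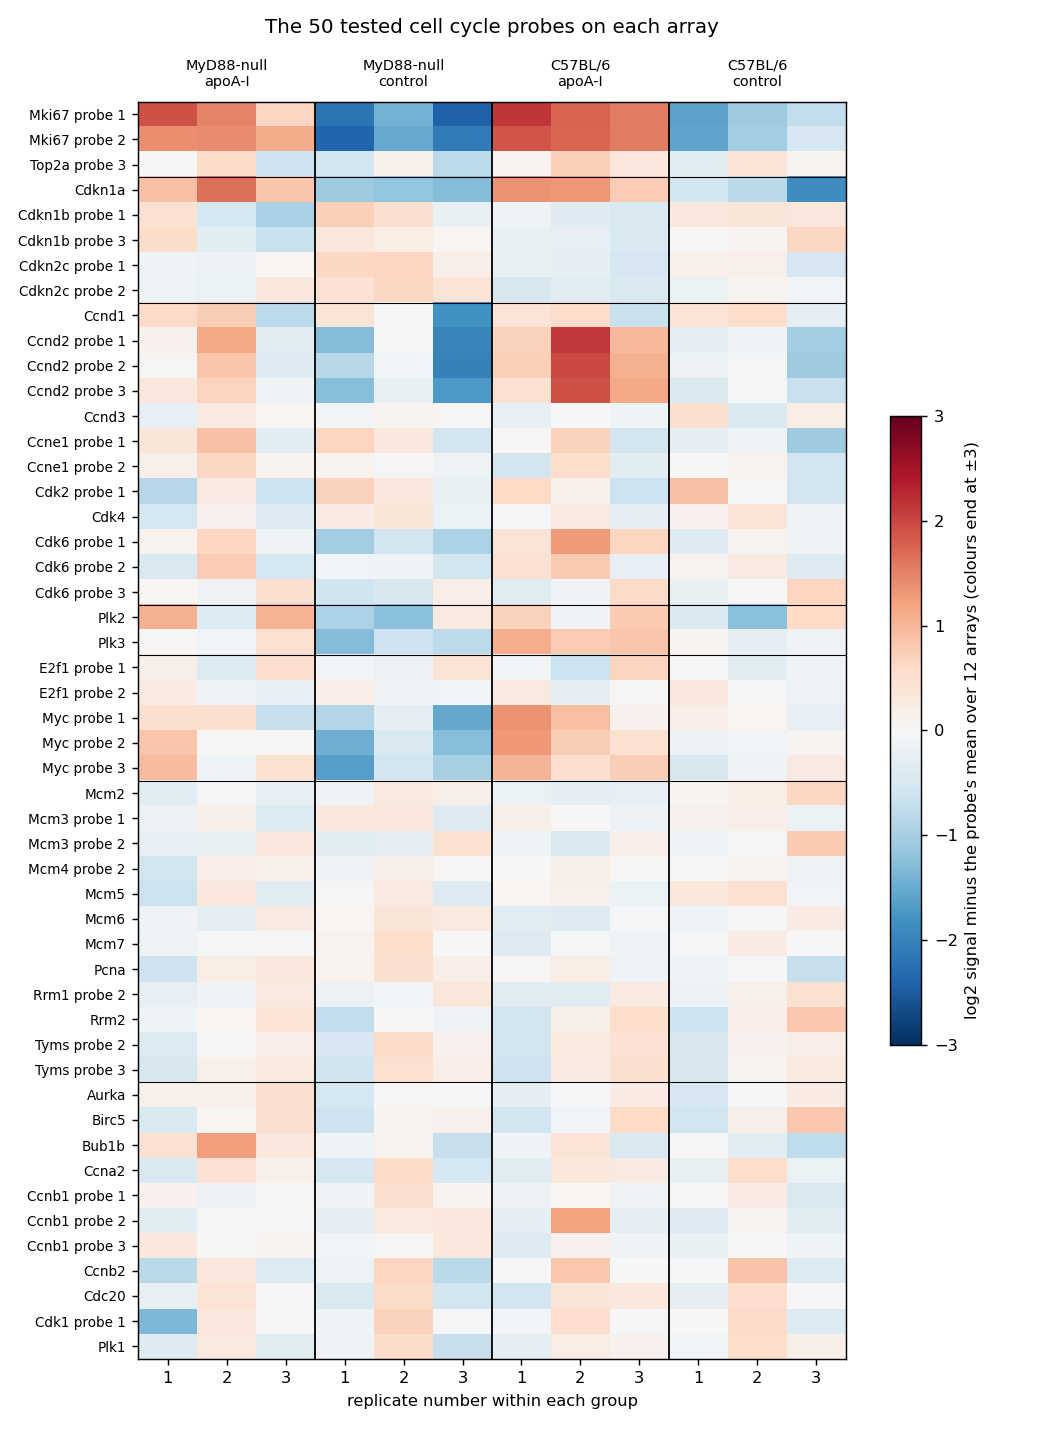
Log2 signal minus the probe's mean over the 12 arrays (colour, ending at ±3) for the 50 tested member probes (rows, by role) on each array (columns, by group and replicate number). Mki67 and Cdkn1a are the rows that split apoA-I from control arrays, and Ccnd2 also differs between replicates of 1 group.

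The design asks whether the response depends on MyD88. No member probe passed for the difference of the 2 responses, by limma without or with the experiment as a block, and none reached an unadjusted p under 0.05 in the fit without it, against 0.797% of all probes higher and 0.283% lower; no probe on the array passed either (0.0%). The rise of Mki67 in MyD88-null cells minus that in C57BL/6 cells was 0.54 on probe 2 (95% interval -0.42 to 1.49) and 0.41 on probe 1 (-0.81 to 1.62), and that of Cdkn1a was 0.11 (-1.02 to 1.24). These intervals leave room for responses that differ by more than 2-fold in favour of MyD88-null cells for both genes. That of Cdkn1a leaves the same room in favour of C57BL/6 cells. Among Myc probes the difference was 0.20 to 0.62, and among Ccnd2 probes -0.55 to -0.18, all with adjusted p of 1.

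Between genotypes, which uses the same arrays again, no member probe was called. Among controls, 0.0123% of all probes were called higher and 0.0452% lower in MyD88-null cells; with apoA-I these shares were 0.0123% and 0.037%. At an unadjusted p under 0.05, 2 member probes were higher and 6 lower in MyD88-null controls, against 1.22% and 2.03% of all probes. In apoA-I-treated MyD88-null cells 0 member probes were higher and 1 lower, against 1.89% and 1.75%. Between MyD88-null and C57BL/6 controls Mki67 differed by -0.96 on probe 2 and -0.89 on probe 1 (limma adjusted p = 1 for both; lower in MyD88-null cells in all 3 experiments), and with apoA-I it differed by -0.42 and -0.48. With apoA-I the genotypes did not overlap on Mki67 probe 2 and overlapped on probe 1, and among controls they overlapped on both probes. Plk3 differed by -0.78 among controls and -0.75 with apoA-I, and the genotypes did not overlap in either. All 3 Myc probes were lower in every MyD88-null control than in any C57BL/6 control, the smallest of the 3 differences being -0.90 on probe 1 (adjusted p = 1 for each). Both Cdkn2c probes were the reverse, higher in every MyD88-null array than in any C57BL/6 array of the same treatment, with differences of 0.56 and 0.53 among controls and 0.25 and 0.41 with apoA-I. Their positions overlap, so that they read largely the same stretch and are not separate measurements. In all, 3 member probes were higher and 5 lower without overlap among controls, against 7.32% and 3.29% of all probes, and 2 and 2 with apoA-I, against 2.8% and 2.51%.

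Further genes of the cycle are given by list. With 1.05% of all probes called higher in MyD88-null cells and 0.69% in C57BL/6 cells, the counts of 0 or 1 call in these lists of 20 to 43 probes lay near the share of all probes. Of 23 tested probes of other S phase and replication genes none was called in either genotype, with medians of -0.28 in MyD88-null cells and -0.14 in C57BL/6 cells. Cdt1, which loads the Mcm ring on DNA, differed most of these: it had 2.47, 1.93 and 2.95 in apoA-I-treated MyD88-null cells against 3.76, 3.48 and 3.71 in controls, and 2.29, 2.07 and 2.62 in apoA-I-treated C57BL/6 cells against 3.02, 3.02 and 3.20 in controls. The groups did not overlap, and the differences were -1.20 and -0.75 (adjusted p = 0.0799 and 0.439, and 0.0100 and 0.0668 with the experiment as a block). Of 43 tested probes of other G2 and M phase genes, such as Foxm1, Cenpf and Kif11, none was called, with medians of 0.03 and -0.10. Their differences ran from -0.46 to 0.75 in MyD88-null cells, with Mybl2 the highest, and from -0.60 to 0.94 in C57BL/6 cells. The highest there was 1 probe of Mad2l1, a spindle checkpoint gene, whose C57BL/6 groups did not overlap (limma adjusted p = 0.562). In MyD88-null cells the groups of that probe overlapped.

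None of the 23 probes of other CDK inhibitors, E2F factors, pocket proteins, Cdc25 genes and Wee1 was called. E2f8, a repressor among the E2F factors, differed by 2.11 in MyD88-null cells and 2.45 in C57BL/6 cells and passed in both only with the experiment as a block (adjusted p = 0.00581 and 0.00356, against 0.200 and 0.132 without). Its levels were 0.58, 0.55 and 1.86 in apoA-I-treated MyD88-null cells against -1.61, -2.00 and 0.27 in controls, and 0.22, 0.18 and 1.17 in apoA-I-treated C57BL/6 cells against -1.93, -2.30 and -1.55 in controls. Replicate 3 was the highest of its group in all 4 groups. Wee1 of the same list differed by -1.07 in MyD88-null cells and -1.45 in C57BL/6 cells (limma adjusted p = 0.708 and 0.634). It was well above background on only 2 and 1 of the apoA-I arrays. Cdkn2b, the p15 inhibitor of Cdk4 and Cdk6, differed by -1.47 between MyD88-null and C57BL/6 controls, which passed with the block (0.0373) and not without it (0.532).

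Of 23 probes of p53 targets and growth arrest genes, 1 passed in each genotype. Btg1, an inhibitor of proliferation, rose by 1.42 on 1 of its probes in MyD88-null cells (adjusted p = 0.00598). Its levels there were 7.66, 7.44 and 7.25 with apoA-I against 6.07, 5.94 and 6.08 in controls. In C57BL/6 cells the difference on this probe was 0.89 (adjusted p = 0.100, and 0.0153 with the experiment as a block). Another Btg1 probe differed by 1.017 in MyD88-null cells and 0.963 in C57BL/6 cells. That probe passed in neither genotype, without the block (adjusted p = 0.214 and 0.290) or with it (0.0929 and 0.126). Gadd45b, a stress gene induced by NF-kappaB, rose by 1.30 on 1 of its probes in C57BL/6 cells (adjusted p = 0.0492), with levels of 4.71, 5.22 and 4.63 with apoA-I against 3.68, 3.61 and 3.36 in controls. In MyD88-null cells the same Gadd45b probe had 4.82, 4.94 and 4.35 with apoA-I against 4.10, 3.75 and 3.60 in controls, which did not overlap either, a difference of 0.89 (adjusted p = 0.203, and 0.0308 with the block). The other Gadd45b probe differed by 1.21 in MyD88-null and 1.06 in C57BL/6 cells and passed only with the block (0.0256 and 0.0445, against 0.174 and 0.305). Gadd45g of the same family differed by -2.22 in MyD88-null cells and -2.30 in C57BL/6 cells and also passed only with the block (0.0239 and 0.0227, against 0.139 and 0.141). Sesn1, a p53 target, had 3 probes with differences of -1.68 to -1.22 in MyD88-null cells and -1.56 to -1.32 in C57BL/6 cells; 1 of them passed, only with the block (-1.57 and -1.32, adjusted p = 0.0161 and 0.0349, against 0.0557 and 0.142). Neither the 20 probes of Myc partners and targets nor the 26 of other polo-like kinases, cyclins and CDKs held a call. Differences of the Myc list ran from -0.76 to 2.07 in MyD88-null cells and from -1.05 to 1.15 in C57BL/6 cells. Mycl was the highest in both, and was well above background on 1 MyD88-null control array. Differences of the list of other polo-like kinases, cyclins and CDKs ran from -0.80 to 0.80 and from -0.32 to 0.57. For scale, all 7 probes of 6 inflammatory genes rose in both genotypes. Tnf, which was well above background on every array, rose by 6.09 in MyD88-null cells and 5.14 in C57BL/6 cells. Il1b, Il6 and Cxcl2 were not well above background on any MyD88-null control array, so their rises there have only a lower bound, set against the lowest signal well above background on each array: Il6, the smallest, was at least 4.32-fold higher (adjusted p = 0.000652).

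The genes nearest to Mki67 over the 12 arrays were not among the cell cycle genes listed here. Likeness was the root mean square difference between centred log2 levels over the 12 arrays, with Mki67 probe 2 as the pattern. This measure counts the size of a change as well as its shape. The replication and mitosis probes, within 2-fold of controls, could therefore not lie near Mki67, and the ranking adds no separate evidence on them. The median over all 24351 probes was 1.68. The other Mki67 probe was nearest, at 0.252. It was followed by Sdc4, a heparan sulfate proteoglycan, at 0.287, Rab11fip1, a protein of recycling endosomes, at 0.331, Icosl, a costimulatory ligand, at 0.351, Ifi205 at 0.372, Cd83, a surface protein of activated immune cells, at 0.391, and Gem, a small GTPase, at 0.399. Sdc4 rose by 3.10 in MyD88-null cells and 2.44 in C57BL/6 cells (limma adjusted p = 0.00111 and 0.00785). The nearest other member was Cdkn1a at 0.762, ranked 102, and then Ccnd2 probe 3 at 0.951 and Myc probe 3 at 0.971.

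The promoters of Mki67 and Top2a are shown because the CCAAT box and the CHR are motifs through which many proliferation genes are known to be switched on in the cycle. Each runs from 250 bases before to 50 bases after the transcript start in RefSeq on GRCm38.p6, both on the minus strand, Mki67 at chr7:135716330-135716629 and Top2a at chr11:99024140-99024439. Capitals mark the CCAAT box (letters CCAAT, or ATTGG where it lies on the other strand) and the cell cycle homology element, or CHR (TTTGAA, or TTCAAA on the other strand).
Mki67 promoter: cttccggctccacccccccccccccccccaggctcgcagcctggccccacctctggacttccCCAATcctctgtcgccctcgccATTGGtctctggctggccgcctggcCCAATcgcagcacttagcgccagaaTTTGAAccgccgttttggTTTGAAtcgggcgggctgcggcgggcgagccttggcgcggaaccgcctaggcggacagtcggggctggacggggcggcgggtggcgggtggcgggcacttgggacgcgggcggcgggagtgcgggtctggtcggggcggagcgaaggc
Top2a promoter: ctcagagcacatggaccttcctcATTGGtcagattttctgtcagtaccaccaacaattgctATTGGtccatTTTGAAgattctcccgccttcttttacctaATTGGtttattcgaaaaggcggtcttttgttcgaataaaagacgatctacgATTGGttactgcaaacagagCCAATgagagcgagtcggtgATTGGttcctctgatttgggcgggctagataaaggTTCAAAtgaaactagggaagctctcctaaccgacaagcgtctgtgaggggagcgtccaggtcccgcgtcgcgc
The Mki67 window held 3 CCAAT boxes and 2 CHR letters, the Top2a window 6 and 2, and neither held a match to the kappaB consensus on either strand. Of 38 members, 31 had a promoter in the table used; the CCAAT box was found in 22 of these (71.0%, against 41.1% of all 27025 genes), the CHR in 9 (29.0%, against 20.2%) and the kappaB consensus in 2, Birc5 and Mcm7. Of all 32851 windows, 37.4% held the CCAAT box, 17.9% the CHR and 8.46% the kappaB consensus. Neither of the 2 Cdkn1a windows held any of the 3. A match is a run of letters and not a shown site of binding.

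The 12 probes that were not tested had levels between -7.72 and -2.94 and were well above background on 0 to 6 arrays each. They left Ccne2, Aurkb and Bub1 with no tested probe. The others were further probes of Cdkn1b, Cdk2, Cdk1, Top2a, Mcm4, Rrm1 and Tyms. Of the 50 tested, 49 were well above background on all 12 arrays, and Cdk2 probe 1 was on 11. Among the marker lists, that of dendritic cells had the largest median difference with apoA-I, 2.15 in MyD88-null cells and 1.12 in C57BL/6 cells. Its summed level ran from -0.60 to 0.63 in apoA-I-treated MyD88-null cells against -2.63 to -0.70 in controls, and from -0.17 to 0.70 in apoA-I-treated C57BL/6 cells against -1.39 to -0.50 in controls. Its 5 tested probes were 1 of Flt3 and 4 of Zbtb46, a transcription factor that marks classical dendritic cells. All 4 Zbtb46 probes passed in MyD88-null cells with the experiment as a block and none without it, and 2 of them were not well above background on any MyD88-null control array, so that the median there rests partly on levels near background; Cd209a of the same list was not detected on any array. The macrophage list ran from 9.48 to 10.28 against 9.34 to 9.59 in MyD88-null cells and from 9.57 to 9.83 against 9.15 to 9.81 in C57BL/6 cells. The part of such cells in the Mki67 result was not tested.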

How the data were processed

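Each of 12 one-colour Agilent arrays measured RNA of 1 macrophage sample. Per the submitters' processing notes and the file headers, the authors read spot intensities with Agilent Feature Extraction 9.5; the processed intensity is the Cy3 signal after background correction, not scaled between arrays. The mean and background intensity columns that the authors deposited are unprocessed pixel values. Another deposited table follows log10 of the processed intensity (r = 0.993 to 0.9997 across spots, column medians 1.82 to 1.87); this match is the only basis for its log10 scale. The sources used here do not state how it was normalized. Its centring is unknown, so it served only as an alternative.

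Groups came from sample titles. The log2 values were made here from the deposited processed intensity, less the log2 of the 75th percentile of its array; outlier spots were left out, saturated spots kept and spots of a probe averaged. Of 41174 non-control probes, 24351 were tested, each well above background on every array of some group. The test was limma 3.58.1 in R 4.3.3, with 4 group means over 12 arrays (8 residual and 2.33 prior degrees of freedom). P-values were two-sided and adjusted by Benjamini-Hochberg over all probes tested, with a threshold of 0.05; ± is the SE of a difference or the SD of 3 arrays, as stated. The procedure was tested on simulated data with independent noise on each array and 50 changed probes of each size. It called 20% of probes with a true log2 difference of 1, 60% at 2, 72% at 3 and 88% at 4. There were 4 false calls among 24351 probes. A probe that did not pass may therefore still have changed, above all by 2-fold or less.

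The same replicate number marks the samples of 1 of the 3 experiments in the series' design. Deviations from group means had r = -0.798 to 0.515 in the 36 pairs of arrays with different numbers. All 18 same-numbered pairs deviated together (r = 0.308 to 0.843), a range that partly overlaps the other. The replicate number was therefore also fitted as a block, called the experiment in the text; where it changed the call of a member or of a cell cycle gene named, both values are given. Of 62 member probes, 53 were matched to the member through their RefSeq accession (GRCm38.p6) and the rest by name in the array files. The array's probe positions are on build mm7. Members named with values are Mki67, Top2a, those that passed in any comparison, and the 2 with the largest difference in each role and genotype. For other lists, genes that passed are given or, where none did, some of those with the largest difference or the range of differences. The members and lists were chosen with earlier results of these data known. Alternatives covered normalization, background correction, the filter, 1 probe per gene, blocks of replicate number, slide or scan day, each array left out, and both readings of the conflicting descriptions. The number of arrays limits the precision.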

Additional observations from a re-analysis of the deposited data

How the results depend on the processing

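In the responses to apoA-I both Mki67 probes kept their direction in every setting run, and passed in all but those named with their values above; Cdkn1a kept its direction in both responses and lost its call in the settings named there. The Mki67 differences between genotypes, which did not pass, turned sign with treatments from the descriptions: to 0.0229 on probe 1 among controls, and to 0.221 on probe 2 and 0.175 on probe 1 with apoA-I. For the difference of responses, which did not pass either, Mki67 probe 1 was -0.0141 with slide as a block, and Cdkn1a ran from -0.514 to 0.502 over the settings. The count of member probes called higher, 3 in each genotype, became 8 in MyD88-null cells and 7 in C57BL/6 cells with the replicate block. It was 5 in MyD88-null cells with scan day as a block, where Myc probes 2 and 3 were added, and 1 there with only the groups of the comparison; all probes called higher then numbered 423 and 93, against 255. It was 1 in C57BL/6 cells without the 2 samples with conflicting descriptions, where 73 of all probes were called higher against 168, and 0 in both genotypes with treatments taken from the descriptions, where no probe of the array was called in either response. The count called lower in MyD88-null cells became 1 (Cdkn1b probe 1) under quantile normalization and 1 with the deposited table, against 0. Leaving out 1 array gave 2 to 3 probes higher and 0 lower in each genotype. The replicate block added no call to the difference of responses or to either comparison of genotypes.

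Medians over the 50 tested member probes are small and moved with the setting. In MyD88-null cells the median was 0.05, but -0.0258 with normexp correction, 0.156 with no filter, -0.0189 with treatments from the descriptions, and -0.0248 to 0.217 with 1 array left out. In C57BL/6 cells it was 0.06, and -0.0668 to 0.218 with 1 array left out. For the difference of responses it was 0.03, but -0.128 without the conflicting samples and -0.205 with treatments from the descriptions. MyD88-null against C57BL/6 controls gave -0.12, but 0.0405 with treatments from the descriptions. With apoA-I the genotypes gave -0.04, but -0.118 under quantile normalization, 0.0438 with 1 probe per gene, -0.118 with the deposited table, -0.116 with slide as a block, -0.165 without the conflicting samples, -0.126 with treatments from the descriptions, and -0.165 to 0.0137 with 1 array left out. The cause of these shifts was not tested. The 12 untested probes were too near background for a comparison.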
